A study of Tigriopus californicus with 32 samples.

Results

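Expression of 4 cuticle genes of the intertidal copepod Tigriopus californicus was followed across 4 populations and 4 thermal treatments. TCALIF_00286 and TCALIF_10390 are both annotated as cuticle protein 7, TCALIF_01077 as cuticle protein and TCALIF_06804 as larval cuticle protein a3a-like. They are 4 of the 21556 genes that the deposited tables list, and they were chosen by their measured values in the San Diego population, where each was lower in the variable than in the nonvariable regime at 20°. All 4 were held in each of the 12 tables, so none was lost to the filter on low expression. The rule describes these genes at 20° only. In the San Diego libraries taken at 28° the mean level of each gene was higher in the variable regime. There 2 of the 4 genes overlapped between the regimes, and no gene passed limma's test given below.

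Crustaceans build an exoskeleton of chitin fibres bound by cuticle proteins and shed and rebuild it at each moult. Cuticle protein families are large, and many of their members are expressed in bursts tied to the moult cycle, in the epidermis that lies under the cuticle. In insects, larval cuticle proteins were named from the soft cuticle of immature stages, and many of these proteins carry a domain that binds chitin. Copepods do not moult again once they are adult. The role of the 4 genes in the adult copepod is not given in the sources used here.

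The populations were San Diego (SD-S) and Bird Rock (BR-S) from the south of California and Santa Cruz (SC-N) and Bodega Bay (BB-N) from the north. Copepods grew up in 1 of 2 regimes, a nonvariable 20° or a daily change between 20° and 28°, and were sampled at 20° (20NV and 20V) or at 28°. The 28° samples were a first, single exposure for the nonvariable regime (28ST) and part of the daily cycle for the variable regime (28V). Each of the 16 groups had 2 libraries, and each library came from a dish with 100 whole adults, as many males as females, taken from laboratory cultures. The dishes of a population came from laboratory cultures of copepods from 1 site, so the spread between them is not that between independent collections. In such pools fewer cells of a type and less RNA per cell cannot be told apart. No 2 libraries of a group could be linked to the replicate numbers of the sample titles, and they are called suffix a and suffix b after their column names, which stand in for the sequencing lane.

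The libraries held between 3648948 and 14509087 reads mapped to the listed genes, with a median of 7413467, and suffix b was the deeper library in 16 of 16 pairs. The temperature labels were checked with 7 genes annotated as HSP70, chaperones that are induced by heat, of which 6 were held in SC-N. Their summed level was higher in each of the 4 libraries at 28° than in each of the 4 at 20° in every population. The regime labels were not checked in this way. Levels are given below as cpm, reads of the gene relative to the library's total, scaled with the trimmed mean of M-values (TMM) over the 8 libraries of a population. Since scaling and reference transcripts differed between the populations, levels are compared within a population only. Cuticle genes form families with similar copies and only uniquely mapped reads were counted, so how reads were divided between near-identical copies is uncertain.

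The 2 libraries of a group often lay far apart for these genes. TCALIF_01077 differed by more than 2-fold between the libraries of 11 of the 16 groups, TCALIF_00286 in 9, TCALIF_06804 in 8 and TCALIF_10390 in 7. The median gene with a mean level of at least 10 cpm did so in 0 of 16 groups, over 11073 genes. Ranked by the median distance between the 2 libraries of a group, on the log2 scale, TCALIF_01077 lay above 99.8% of these genes. The same rank was 99.8% for TCALIF_00286, 97.6% for TCALIF_06804 and 96.2% for TCALIF_10390. The other cuticle genes shared this, with a median of 8 groups over 44 genes. The widest gap of each of the 4 genes was in 20NV of SC-N. Differences between treatments are therefore given library by library before any test.

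**Figure D1:**
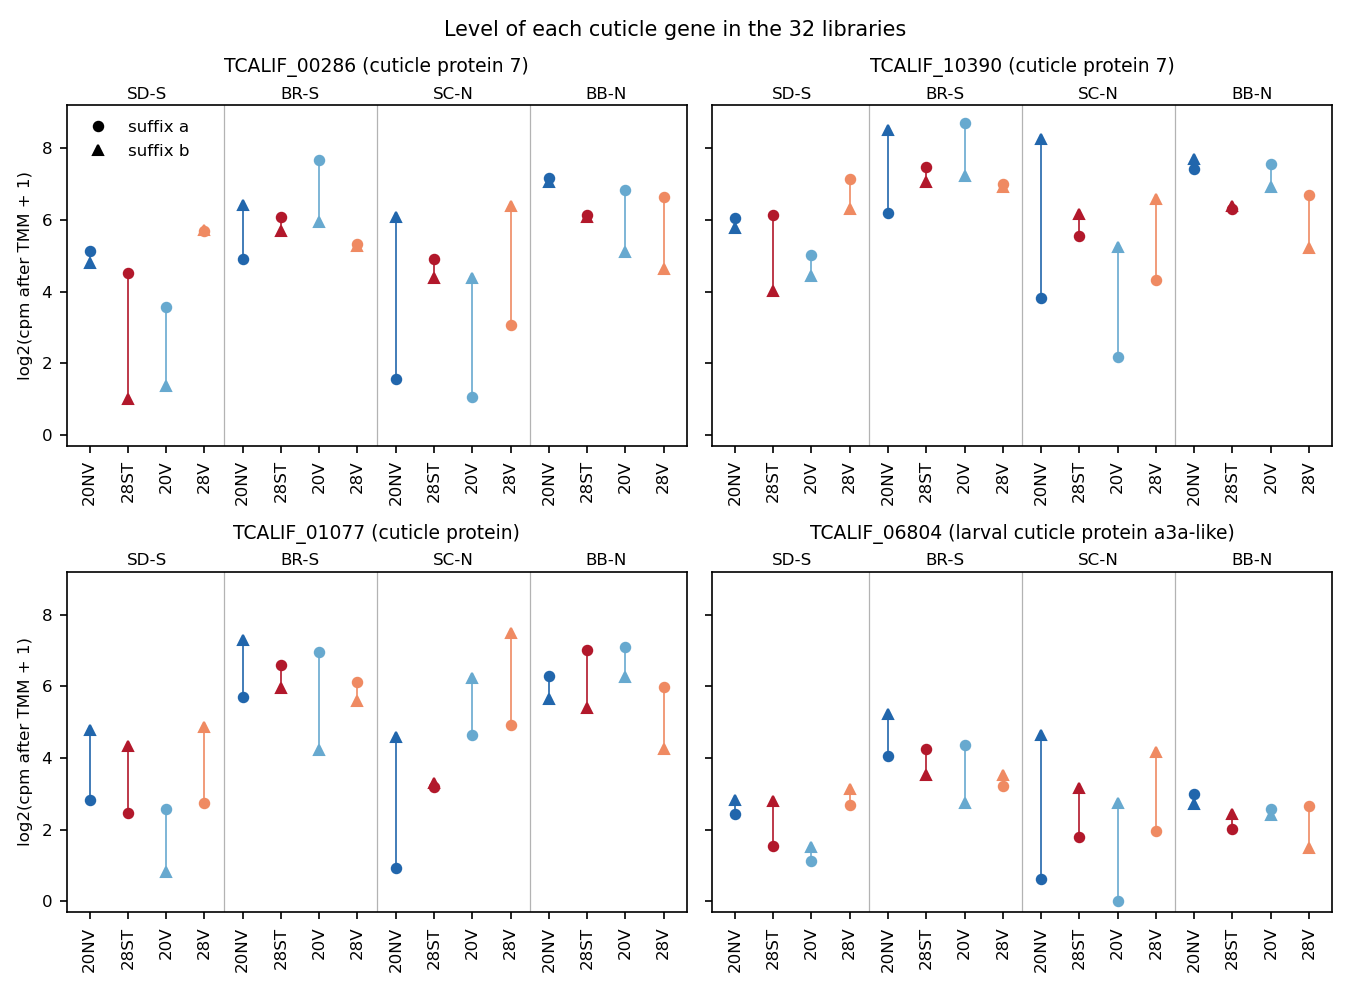
Level of each of the 4 genes in the 32 libraries, as log2(cpm after TMM + 1) on the vertical axis, against the 4 treatments of each population on the horizontal axis; circles are suffix a, triangles suffix b, and lines join the 2 libraries of a group. In SD-S both 20V libraries lie below both 20NV libraries for each gene, while in SC-N the triangles lie far above the circles in 20NV, 20V and 28V.

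In SD-S, the population that chose the genes, all 4 had their highest mean level in 28V, followed by 20NV, 28ST and 20V. The values of 20V and 20NV chose the genes, and 28V vs 20V and 28ST vs 20NV share these libraries, so these 3 contrasts are described without a test. The level of TCALIF_00286 was 33.9 and 26.8 cpm in 20NV (suffix a and b), 10.9 and 1.55 in 20V, 21.9 and 0.986 in 28ST and 50.8 and 52.1 in 28V. The low values were found in both libraries of 20V and in suffix b of 28ST, which held 10 reads of this gene against 158 in suffix a. Neither 20V nor 28ST overlapped with 20NV, and both 28V libraries were above the other 6.

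The other copy of cuticle protein 7, TCALIF_10390, had a level of 65.3 and 53.9 cpm in 20NV, 31.2 and 20.8 in 20V, 69.8 and 15.1 in 28ST and 140.3 and 78.2 in 28V. Both 28V libraries were above all other libraries, and suffix b of 28ST was again low. TCALIF_01077 had a level of 6.11 and 26.6 cpm in 20NV, 4.96 and 0.774 in 20V, 4.56 and 19.3 in 28ST and 5.69 and 28.2 in 28V. Suffix b was the higher library in 3 of these 4 groups and the lower one in 20V, so that in suffix a the 4 treatments lay close together. TCALIF_06804 had a level of 4.41 and 6.05 cpm in 20NV, 1.17 and 1.84 in 20V, 1.94 and 6.01 in 28ST and 5.50 and 7.78 in 28V. The 20V libraries were the lowest 2 of the 8, but they rest on 8 and 19 reads.

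The contrast that chose the genes, 20V vs 20NV, gave a log2 fold change on log2(value + 1) of −2.50 (SE 0.37) for TCALIF_00286, −2.11 (SE 0.39) for TCALIF_01077, −1.32 (SE 0.39) for TCALIF_06804 and −1.19 (SE 0.30) for TCALIF_10390. From the lowest, these were places 8, 14, 63 and 82 among the 17929 genes of this comparison. Both 20V libraries lay below both 20NV libraries in 4 of 4 genes, as in 10.1% of all SD-S genes, and nothing is read from this count. For TCALIF_01077 the fall was unequal, with a log2 fold change of −0.25 within suffix a and −3.96 within suffix b. For TCALIF_06804 it was −1.32 within suffix a and −1.31 within suffix b. Both genes still have an SE of 0.39, since the variance in this fit comes from a trend over all genes, not from a gene's own libraries.

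After the shift to 28° in the variable regime (28V vs 20V) the log2 fold change in SD-S was 3.26 (SE 0.53) for TCALIF_00286, 2.11 (SE 0.89) for TCALIF_01077, 2.00 (SE 0.13) for TCALIF_10390 and 1.61 (SE 0.25) for TCALIF_06804. Both 28V libraries were above both 20V libraries in 4 of 4 genes, beside 12.2% of all genes. In the nonvariable regime (28ST vs 20NV) the values were negative, at −2.23 (SE 0.74), −0.43 (SE 0.22), −0.87 (SE 0.44) and −0.47 (SE 0.32) in the same order of genes. The suffixes did not share this evenly. For TCALIF_10390 the value was 0.10 within suffix a against −1.77 within suffix b, and for TCALIF_06804 it was −0.88 against −0.0078. Without suffix b of 28ST TCALIF_10390 came to −0.047, and without suffix a of 28ST TCALIF_06804 came to −0.018. Here 1 of 4 genes, TCALIF_00286, was lower without overlap, beside 7.67% of all genes. As these contrasts use the libraries that chose the genes, a high 28V vs 20V value can be had from low 20V values alone.

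The 28V and 28ST libraries of SD-S were not used to choose the genes, and 28V vs 28ST asks whether the regimes also differed at 28°. The log2 fold change was 2.95 for TCALIF_00286 (SE 0.86, 95% interval 0.69 to 5.22, adjusted p = 0.771 with limma). It was 1.64 for TCALIF_10390 (SE 0.34, 0.76 to 2.53, adjusted p = 0.605), 0.73 for TCALIF_06804 (SE 0.30, −0.05 to 1.52, adjusted p = 0.869) and 0.39 for TCALIF_01077 (SE 0.20, −0.15 to 0.93, adjusted p = 0.902). Thus 0 of 4 genes were called DE (Benjamini-Hochberg adjusted p under 0.05 over all genes), as were 0% of the 17449 genes of this comparison. With limma 2 of the 4 had an unadjusted p under 0.05, as had 5.76% of all genes. The likelihood ratio test of edgeR and DESeq2 called 1 each, TCALIF_10390, beside 0.946 and 0.504% of all genes. The quasi-likelihood test of edgeR called 0. Counts by these tools are to be read against their shares over all genes, which in the 28 tested comparisons ran from 0.916 to 31.6% for an unadjusted p under 0.05 with limma, from 0 to 13.5% for calls of the likelihood ratio test, from 0 to 1.32% for the quasi-likelihood test and from 0 to 5.4% for DESeq2. In both suffixes each gene was higher in 28V, and TCALIF_00286 and TCALIF_10390 were higher without overlap, 2 of 4 beside 14.1% of all genes. TCALIF_00286 had the highest fold change of all genes in this comparison, place 17449 from the lowest, and this value rests on the 10 reads in suffix b of 28ST. Without that library it was 1.62, and without suffix b of 28V 1.93, in a joint fit of the population.

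Most other cuticle genes had a higher value in 20V than in 20NV of SD-S, but some had a lower one. Since the 4 genes were chosen for being low there, their distance from the rest of the list is in part fixed by the choice. The list of cuticle genes was taken from the annotation of genes named as DE in these same samples, so it was chosen on them and is not independent evidence. It holds 82 genes besides the members described here. In 20V vs 20NV of SD-S 58 of these were held, of which 42 had a positive and 16 a negative log2 fold change, with a median of 0.52 beside 0.03 over all genes. The lowest value was −1.30, below that of TCALIF_10390. Of the 58, 13 were called higher and 0 lower with limma, beside 1.4% of all genes called higher; at an unadjusted p under 0.05 limma had 28 higher and 6 lower, and both edgeR tests and DESeq2 called 0 lower. Their summed level, over 54 genes held in all SD-S tables, was 1107 and 1298 cpm in 20NV and 3123 and 3539 in 20V. It was 1463 and 2050 in 28ST and 3468 and 2240 in 28V.

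The 4 genes made up 9.02 and 8.03% of the summed level of all listed cuticle genes in 20NV of SD-S and 1.52 and 0.701% in 20V. These are the libraries that chose the genes, so the low share in 20V was fixed by the choice and nothing is read from it. The share was 5.51 and 6.91% in 28V and 6.29 and 1.98% in 28ST. In SC-N, whose values were not used in the choice, it was 0.744 and 1.97% in 20V and between 3.22 and 8.25% in the other 6 libraries. In BR-S it was 7.32 and 9.50% in 20V and between 3.90 and 4.80% elsewhere, so that 20V was the lowest treatment in SC-N and the highest in BR-S. In BB-N 20V, at 3.96 and 5.04%, lay within the range of the other libraries.

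**Figure D2:**
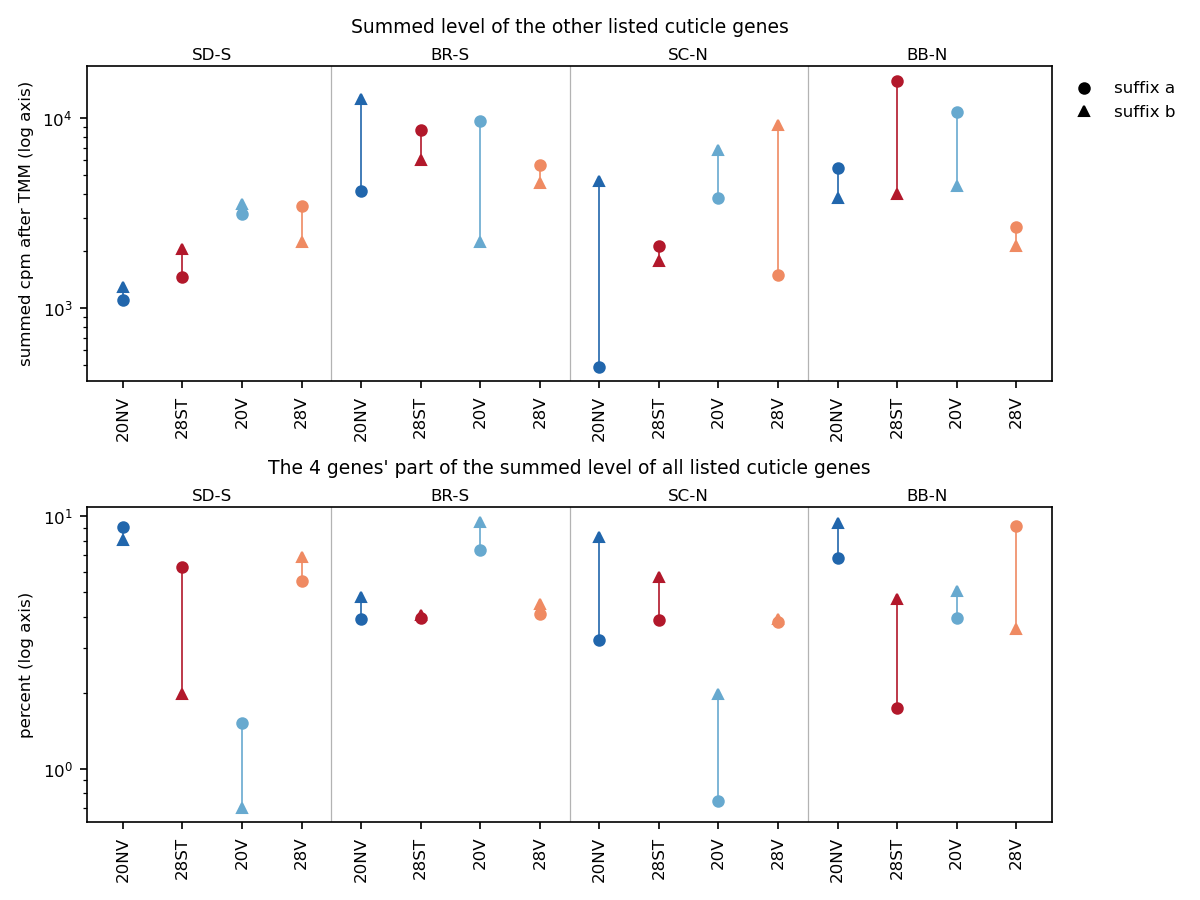
Summed level of the other listed cuticle genes (upper panel, cpm after TMM, log axis) and the percentage that the 4 genes make up of the summed level of all listed cuticle genes (lower panel, log axis), per library and treatment; circles are suffix a and triangles suffix b. In SD-S the sum of the other genes was between 3123 and 3539 in 20V against 1107 and 1298 in 20NV, while the share of the 4 genes was lowest in 20V, the treatment whose values chose them.

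Genes for chitin synthesis, chitin binding and moulting, 38 in a list made in the same way, had a summed level of 1523 and 960 cpm in 20NV and 1512 and 1436 in 20V of SD-S. The sums of 20V lay within the range of 20NV, but single genes of the list differed. Of 32 genes held, 7 were called higher and 1 lower with limma, with a median log2 fold change of 0.38. Yolk genes (5 vitellogenins, which mature females express) had a summed level of 24717 and 29895 cpm in 20NV, 18774 and 21080 in 20V, 24171 and 25006 in 28ST and 22873 and 7756 in 28V. The sums were smaller in both 20V than in both 20NV libraries, and smallest in suffix b of 28V. All 5 yolk genes had a negative value in 20V vs 20NV (median −0.52) and in 28V vs 28ST (median −0.87), and limma, edgeR and DESeq2 called 0 of 5 in either. At an unadjusted p under 0.05 limma had 2 and 1 of them lower and the likelihood ratio test 1 and 4. The quasi-likelihood test had 4 and 1 lower and DESeq2 2 and 5. The part of the make-up of the pools in the levels of the 4 genes was not tested.

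In BR-S, the other southern population, the difference between regimes at 20° had opposite signs in the 2 suffixes for each of the 4 genes. TCALIF_00286 had a level of 28.8 and 83.8 cpm in 20NV and 203 and 60.6 in 20V. TCALIF_10390 had a level of 72.4 and 361 cpm in 20NV and 416 and 149 in 20V. Suffix b was the higher library in 20NV and suffix a in 20V, and the groups overlapped. TCALIF_01077 followed the same course with 51.5 and 156 cpm in 20NV and 124 and 17.5 in 20V. TCALIF_06804 did so too, with 15.5 and 36.8 cpm in 20NV and 19.5 and 5.73 in 20V. The summed level of the other cuticle genes moved with them, from 4146 and 12652 cpm in 20NV to 9658 and 2220 in 20V.

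The log2 fold change of 20V vs 20NV in BR-S was 1.16 (SE 0.77) for TCALIF_00286, 0.62 (SE 0.90) for TCALIF_10390, −0.92 (SE 1.02) for TCALIF_01077 and −1.09 (SE 0.68) for TCALIF_06804. With limma 0 of 4 were called (0% of all genes, adjusted p = 0.999 for each), 0 had an unadjusted p under 0.05, and neither edgeR nor DESeq2 called any. By depth, libraries of the same suffix belong to the same replicate of the paper, which sequenced its replicates in separate lanes. Even so, in BR-S the suffix differences of these treatments correlated negatively across genes (r = −0.35). A fit added after seeing the data paired suffix a with suffix b, by depth libraries of different lanes. In it each gene had the same sign in both pairs and limma called 1 of 4, TCALIF_00286 (adjusted p = 0.041), beside 0.426% of all genes. The pairing was set with the opposite signs known, so nothing is read from this call. At 28° the libraries lay closer together. TCALIF_00286 had a level of 66.98 and 50.96 cpm in 28ST and 39.3 and 37.3 in 28V, and TCALIF_10390 178 and 131 in 28ST and 128 and 119 in 28V. Both were lower in 28V without overlap, 2 of 4 genes beside 14.5% of all genes. TCALIF_01077 had a level of 95.4 and 60.9 cpm in 28ST and 68.3 and 47.6 in 28V, with overlap. TCALIF_06804 had 17.9 and 10.5 cpm in 28ST and 8.28 and 10.6 in 28V, also with overlap.

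The 28V vs 28ST difference in BR-S lay between −0.61 (SE 0.20, TCALIF_00286) and −0.32 (SE 0.20, TCALIF_10390) on the log2 scale. With limma 0 of 4 genes were called, beside 0.00585% of all genes, and 1 had an unadjusted p under 0.05, beside 4.04%. EdgeR and DESeq2 called 0. In 28V vs 20V TCALIF_00286 had a log2 fold change equal to −1.52 (SE 0.31, adjusted p = 0.128) and TCALIF_10390 one of −1.02 (SE 0.28, adjusted p = 0.405). These 2 were lower in 28V without overlap, beside 15.2% of all genes, whereas the values of the other 2 genes, 0.26 and −0.18, had opposite signs in the suffixes. Of the 4, 0 were called with limma in this comparison, beside 0.188% of all genes. With limma 2 had an unadjusted p under 0.05 (5.81% of all genes), and the likelihood ratio test called 1 (0.604%). In 28ST vs 20NV the signs of the 2 suffixes were opposite for all 4 genes, the log2 fold changes ran from −0.76 to 0.24, and 0 were called by limma (0.12% of all genes), edgeR or DESeq2, with 0 at an unadjusted p under 0.05.

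In SC-N suffix b was the higher library in 20NV, 20V and 28V for every gene. TCALIF_00286 had a level of 1.96 and 67.3 cpm in 20NV, 29.3 and 19.8 in 28ST, 1.10 and 19.9 in 20V and 7.35 and 82.2 in 28V. TCALIF_10390 had 13.0 and 305 cpm in 20NV, 45.6 and 71.5 in 28ST, 3.51 and 36.8 in 20V and 19.2 and 94.3 in 28V. For both genes the step between suffixes in 20NV, 20V and 28V was wide, and among the pairs of treatments only 20V and 28ST of TCALIF_10390 did not overlap. TCALIF_06804 had 0.535 and 24.2 cpm in 20NV, 2.50 and 7.94 in 28ST, 0 and 5.66 in 20V and 2.91 and 16.9 in 28V. In suffix a of 20V this gene had 0 reads, which allows a level of up to 0.658 cpm by the limit of 3 reads, for counting error only.

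TCALIF_01077 went another way in SC-N. Its level was 0.891 and 23.2 cpm in 20NV, 8.11 and 8.87 in 28ST, 23.9 and 74.5 in 20V and 29.6 and 179.9 in 28V. Both libraries of each variable treatment were above all 4 libraries of the nonvariable regime. The SC-N libraries also differed in yolk genes, whose summed level was between 400 and 12601 cpm in suffix a and between 31721 and 146142 cpm in suffix b. The other cuticle genes had a summed level of 492 and 4672 cpm in 20NV and 1489 and 9209 in 28V, so that suffix b was higher there too. The part of these differences in the results on SC-N was not tested.

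The regimes at 20° gave log2 fold changes in SC-N of −2.33 (SE 0.37, adjusted p = 0.064) for TCALIF_10390, −1.26 (SE 0.42, adjusted p = 0.136) for TCALIF_06804, −1.10 (SE 0.37, adjusted p = 0.137) for TCALIF_00286 and 2.67 (SE 0.53, adjusted p = 0.075) for TCALIF_01077. Each gene had the same sign in both suffixes. With limma 0 of 4 were called (0.136% of all genes), and 4 had an unadjusted p under 0.05, as had 31.6% of all genes. The likelihood ratio test called 4 (13.5% of all genes), DESeq2 2 (5.4%) and the quasi-likelihood test 0 (0.0819%). TCALIF_01077 was the only one of the 4 without overlap, higher in 20V as were 31.5% of all genes. The median of 67 other cuticle genes was 0.94, with 53 positive and 14 negative, and 2 were called higher and 0 lower. Those 2 were TCALIF_07889, a flexible cuticle protein 12 precursor (log2 fold change 3.29, SE 0.19, adjusted p = 0.047), and comp24836_c0_seq1_13235, a cuticle protein precursor (2.33, SE 0.14, adjusted p = 0.047). At an unadjusted p under 0.05 limma had 19 higher and 6 lower, and the likelihood ratio test and DESeq2 called 6 and 4 lower.

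The shift to 28° in the variable regime (28V vs 20V) raised 3 of the 4 genes in SC-N, by limma. The log2 fold change was 1.99 (SE 0.45, adjusted p = 0.0011) for TCALIF_00286, 1.75 (SE 0.42, adjusted p = 0.0028) for TCALIF_10390 and 1.68 (SE 0.47, adjusted p = 0.021) for TCALIF_06804. TCALIF_01077 was not called, at 0.79 (SE 0.39, adjusted p = 0.560). Of all genes 0.519% were called higher in this comparison. Every gene was higher in 28V in both suffixes, and the groups overlapped in all 4. In this fit the variance behind the SE and p-values comes from a trend over all genes, not from a gene's own libraries. The calls did not stand in every fit. Without the block 0 of 4 were called, and the joint fit of the 8 libraries, which kept the block, also called 0. Yolk genes moved in the same comparison, with 5 of 5 negative (median −1.75), 2 called lower and summed levels of 9722 and 52349 cpm in 20V and 400 and 31721 in 28V. With 1 of the 4 libraries left out of the joint fit, the fold change of TCALIF_00286 stayed between 1.56 and 2.44. That of TCALIF_10390 stayed between 1.44 and 2.06 and that of TCALIF_06804 between 1.44 and 1.96. The likelihood ratio and quasi-likelihood tests called TCALIF_00286 and TCALIF_10390 (0.562 and 0.715% of all genes), and DESeq2 only TCALIF_00286 (0.272%).

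Of 74 other cuticle genes, 4 were called higher and 3 lower in this comparison, with a median of 0.11. The largest rise was that of TCALIF_11943, cuticle protein 19 (2.05, SE 0.40, adjusted p = 5.1e-05), followed by comp25121_c0_seq1_13329, cuticle protein 7 (1.88, SE 0.47, adjusted p = 0.0052). The largest falls were those of comp24836_c0_seq1_13235 (−2.81, SE 0.40, adjusted p = 2.2e-09) and comp32809_c0_seq1_18013, cuticle protein 6 (−2.79, SE 0.41, adjusted p = 8.2e-09). In the nonvariable regime (28ST vs 20NV) the 4 genes had opposite signs in the 2 suffixes. Their log2 fold changes ran from −0.15 to 0.85 with standard errors between 0.70 and 1.22, and limma (0.0222% of all genes), edgeR and DESeq2 called 0, with 0 at an unadjusted p under 0.05.

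At 28° TCALIF_01077 was higher in 28V than in 28ST of SC-N, with a log2 fold change equal to 2.96 (SE 0.49, adjusted p = 0.0031 with limma), 1 of 4 genes called beside 0.16% of all genes called higher. Its groups did not overlap, as was the case in this direction for 12.2% of all genes, and within the suffixes it was 1.75 (a) and 4.20 (b) on the log2 scale. The SE rests mainly on a variance trend over all genes, not on the distance between these suffixes. The call also stood with both edgeR tests and DESeq2, but it was lost without the block, in the joint fit and when any 1 of the 4 libraries was left out of that fit, where the fold change ran from 1.72 to 4.22. Yolk genes moved here too, with 5 of 5 negative (median −3.07), 1 called lower and summed levels of 11483 and 132067 cpm in 28ST. Their part in the result on TCALIF_01077 was not tested. The other 3 genes gave 0.05 (SE 0.57), −0.42 (SE 0.44) and 0.57 (SE 0.51) and overlapped. Of 60 other cuticle genes 7 were called higher and 0 lower, with a median of 0.60. The largest rises were those of TCALIF_12217 (3.48, SE 0.58, adjusted p = 0.0031) and TCALIF_06039 (3.17, SE 0.46, adjusted p = 0.00086), both cuticle protein 7. At an unadjusted p under 0.05 limma had 18 higher and 4 lower, and neither edgeR nor DESeq2 called any lower.

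In BB-N the 4 genes had their lowest mean level in 28V. TCALIF_00286 had a level of 144 and 131 cpm in 20NV, 69.45 and 67.05 in 28ST, 114 and 33.3 in 20V and 99.0 and 23.6 in 28V. The 20NV libraries were above all other 6, and in the variable regime suffix b was far below suffix a. TCALIF_10390 had 169.9 and 207 cpm in 20NV, 77.4 and 82.9 in 28ST, 188 and 119.7 in 20V and 103 and 36.0 in 28V. Both 28ST libraries of this gene were below all 20NV and 20V libraries. TCALIF_01077 had 77.8 and 49.2 cpm in 20NV, 129 and 41.1 in 28ST, 137 and 76.0 in 20V and 61.8 and 17.9 in 28V. TCALIF_06804 had 6.97 and 5.61 cpm in 20NV, 3.06 and 4.37 in 28ST, 5.001 and 4.265 in 20V and 5.28 and 1.78 in 28V.

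At 20° the regimes of BB-N gave a log2 fold change equal to −1.14 (SE 0.33, adjusted p = 0.161) for TCALIF_00286 and 0.71 (SE 0.14, adjusted p = 0.058) for TCALIF_01077, while TCALIF_10390 and TCALIF_06804 had −0.32 (SE 0.23) and −0.37 (SE 0.26). TCALIF_00286 and TCALIF_06804 were lower in 20V without overlap, 2 of 4 beside 20.9% of all genes. Limma called 0 of 4 (2.48% of all genes), and 2 had an unadjusted p under 0.05 (13.6%). The likelihood ratio test called 1 (5.59% of all genes) and the quasi-likelihood test and DESeq2 0. Among 76 other cuticle genes 21 were called higher and 2 lower, with a median of 0.48. The largest rises were those of comp24610_c0_seq1_13069 (2.33, SE 0.33, adjusted p = 0.020) and TCALIF_08785 (1.66, SE 0.26, adjusted p = 0.027), both flexible cuticle protein 12 precursors. The 2 that fell were Contig1746_1745, tpa: cuticle protein (−1.84, SE 0.28, adjusted p = 0.022), and TCALIF_11943 (−1.13, SE 0.21, adjusted p = 0.040).

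In 28ST vs 20NV of BB-N TCALIF_10390 had a log2 fold change equal to −1.22 (SE 0.18, adjusted p = 0.075) and TCALIF_00286 one of −1.005 (SE 0.17, adjusted p = 0.137). TCALIF_06804 had −0.63 (SE 0.33), and these 3 were lower in 28ST without overlap, 3 of 4 beside 20.7% of all genes. TCALIF_01077, with 0.23 (SE 0.26), overlapped. Limma called 0 of 4 (0.327% of all genes) and 2 had an unadjusted p under 0.05 (6.87%). The likelihood ratio test called 2 (1.35% of all genes), DESeq2 1 (0.895%) and the quasi-likelihood test 0. Limma also called TCALIF_10390 with a pseudocount of 4 or with genes of a mean value of at least 10 alone. The 75 other cuticle genes had a median of 0.25, with 45 positive and 30 negative; 0 were called with limma, 10 were higher and 8 lower at an unadjusted p under 0.05, and the likelihood ratio test called 4 higher and 1 lower.

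In 28V vs 20V of BB-N TCALIF_01077 had a log2 fold change equal to −1.58 (SE 0.23, adjusted p = 0.105) and TCALIF_10390 one of −1.28 (SE 0.22, adjusted p = 0.144), both lower without overlap, 2 of 4 beside 17% of all genes. TCALIF_06804 and TCALIF_00286 had −0.43 (SE 0.33) and −0.35 (SE 0.11) and overlapped. None of the 4 was called by limma (0 of 4, beside 0.827% of all genes), and 3 had an unadjusted p under 0.05 (10.1%). The likelihood ratio test and DESeq2 called 2 each (2.73 and 1.51% of all genes) and the quasi-likelihood test 0. The other cuticle genes fell in number here, with 31 of 76 called lower and 0 higher and a median of −1.66; 1 was higher at an unadjusted p under 0.05, and edgeR and DESeq2 called 0 higher. The largest falls were those of TCALIF_12032, cuticle protein (−3.66, SE 0.27, adjusted p = 0.024), and TCALIF_10126, cuticle protein 7 (−3.52, SE 0.34, adjusted p = 0.041).

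In 28V vs 28ST of BB-N the log2 fold change of TCALIF_01077 was −1.08 (SE 0.16, adjusted p = 0.054), with the same sign in both suffixes but overlapping libraries. The other 3 had opposite signs in the 2 suffixes and lay between −0.46 and −0.14. With limma 0 of 4 were called (0.763% of all genes), and 1 had an unadjusted p under 0.05 (17.4%). The likelihood ratio test and DESeq2 called 1 each (2.16 and 1.72% of all genes) and the quasi-likelihood test 0. Of 74 other cuticle genes 8 were called lower and 0 higher with limma, and 0 were higher by any tool or at an unadjusted p under 0.05. The largest falls were those of comp24610_c0_seq1_13069 (−3.15, SE 0.18, adjusted p = 0.0099) and TCALIF_10123, cuticle protein 7 (−2.82, SE 0.38, adjusted p = 0.043).

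**Figure D3:**
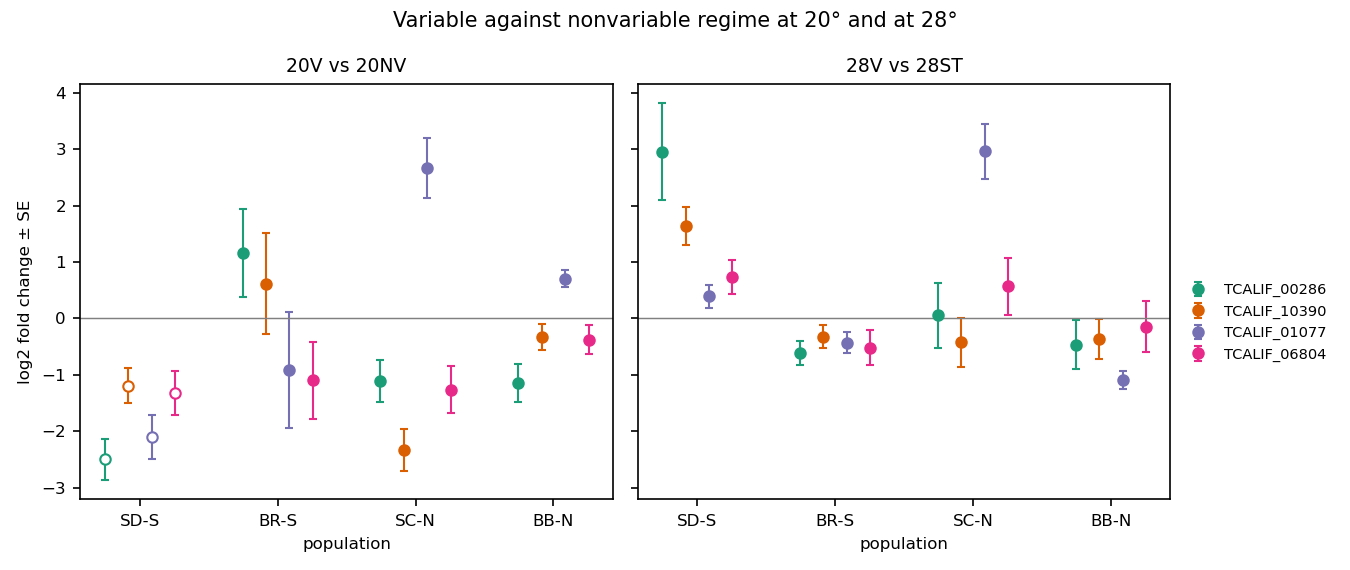
Log2 fold change on log2(value + 1), with its SE as a bar, of each gene between the variable and the nonvariable regime at 20° (left) and at 28° (right) in the 4 populations; open symbols mark the contrast that chose the genes. In SD-S the 4 values lie below 0 at 20° and above 0 at 28°, and in SC-N TCALIF_01077 lies at 2.67 and 2.96, apart from the other genes. The SE comes from a variance trend over all genes in SD-S at 20°, and mainly so in SC-N at 28°.

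**Figure D4:**
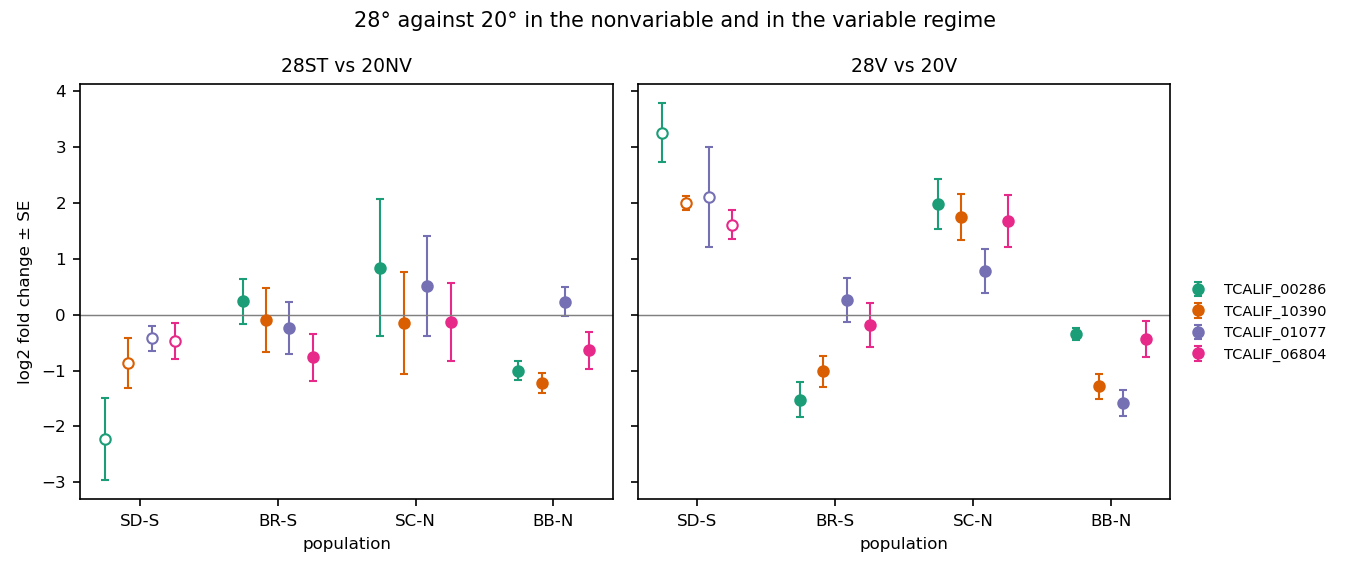
Log2 fold change on log2(value + 1), with its SE as a bar, of each gene between 28° and 20° in the nonvariable (left) and the variable regime (right) in the 4 populations; open symbols mark contrasts that share libraries with the choice of the genes. In the variable regime the values lie above 0 in SD-S and SC-N, while in BB-N they lie below 0. The SE of SC-N in the variable regime comes from a variance trend over all genes, not from a gene's own libraries.

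Whether the response to 28° differed between the regimes within a population was tested in the 3 populations that did not choose the genes, as (28V − 20V) − (28ST − 20NV). With limma 0 of 4 genes were called in BR-S (0% of all genes), SC-N (0%) or BB-N (0.478%). An unadjusted p under 0.05 with limma was reached by 0 genes in BR-S and SC-N and by 1 in BB-N, TCALIF_01077, beside 7.4% of all genes. Its difference was −1.81 (SE 0.39, adjusted p = 0.186 with limma). The likelihood ratio test and DESeq2 called this gene, beside 1.68 and 1.42% of all genes. In SC-N the differences were 1.92 (SE 1.13) for TCALIF_10390, 1.85 (SE 0.86) for TCALIF_06804 and 1.18 (SE 1.55) for TCALIF_00286. Among the 74 other cuticle genes in BB-N 4 were called lower and 0 higher, with a median of −1.84, and comp24610_c0_seq1_13069 (−5.51, SE 0.53, adjusted p = 0.015) and TCALIF_10126 (−4.94, SE 0.69, adjusted p = 0.042) were the lowest of them.

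Whether a response differed between populations was tested on the difference itself, and limma called 0 of 4 genes in each of the 12 tests. In 28V vs 28ST, SD-S minus BR-S was 3.56 (SE 1.07, 95% interval 0.93 to 6.19) for TCALIF_00286, 1.97 (SE 0.44, 0.88 to 3.07) for TCALIF_10390, 1.26 (SE 0.48, 0.07 to 2.44) for TCALIF_06804 and 0.83 (SE 0.23, 0.25 to 1.41) for TCALIF_01077. All 4 intervals lay above 0, but the adjusted p-values were between 0.852 and 0.9999 and 0% of all genes were called. SD-S minus BB-N gave 3.44 (SE 1.28), 2.03 (SE 0.66), 0.90 (SE 0.64) and 1.497 (SE 0.22) in the same order, with adjusted p between 0.251 and 0.635 and 0.0259% of all genes called. Against SC-N TCALIF_00286 and TCALIF_10390 gave 2.92 (SE 1.54) and 2.09 (SE 0.65), whereas TCALIF_01077 gave −2.55 (SE 0.77), with 0% of all genes called. At an unadjusted p under 0.05 with limma the numbers were 4, 3 and 2 of the 4 genes against BR-S, BB-N and SC-N. The shares of all genes were 2.77, 9.82 and 1.5%. The likelihood ratio test called 1 gene each in the first 2 of these (0.448 and 1.05% of all genes) and DESeq2 1 in the first (0.397%). The quasi-likelihood test called 0.

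Among BR-S, SC-N and BB-N the differences in 28V vs 20V were tested after the values had been seen. SC-N minus BB-N was 3.03 (SE 0.44, adjusted p = 0.346) for TCALIF_10390, 2.37 (SE 0.47, adjusted p = 0.622) for TCALIF_01077, 2.34 (SE 0.27, adjusted p = 0.331) for TCALIF_00286 and 2.11 (SE 0.50, adjusted p = 0.804) for TCALIF_06804. BR-S minus SC-N was −3.51 (SE 0.56) for TCALIF_00286, −2.76 (SE 0.54) for TCALIF_10390 and −1.86 (SE 0.67) for TCALIF_06804, with adjusted p = 0.917 for each. In both tests, and in BR-S minus BB-N, limma called 0% of all genes. With limma all 4 genes had an unadjusted p under 0.05 in SC-N minus BB-N (3.35% of all genes), 3 in BR-S minus SC-N (2.1%) and 1 in BR-S minus BB-N (4.19%). The likelihood ratio test and DESeq2 called 3 genes each in SC-N minus BB-N (0.894 and 0.606% of all genes). They called 2 each in BR-S minus SC-N (0.0935 and 0.0691%), the quasi-likelihood test 0.

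In 28V vs 28ST TCALIF_01077 differed by 4.03 (SE 0.77, 95% interval 2.12 to 5.94, adjusted p = 0.797) between SC-N and BB-N and by −3.40 (SE 0.77, −5.27 to −1.52, adjusted p = 0.99999) between BR-S and SC-N. In both, limma called 0% of all genes and this gene alone of the 4 had an unadjusted p under 0.05, beside 4.99 and 2.03% of all genes. The likelihood ratio test (0.534 and 0.137% of all genes) and DESeq2 (0.432 and 0.142%) called this gene in both. Between BR-S and BB-N it differed by 0.66 (SE 0.20, adjusted p = 0.743), with 0% of all genes called and 0 of 4 genes by any tool. These tests, too, were added after the values had been seen. In 20V vs 20NV SC-N minus BB-N was −2.003 (SE 0.53, adjusted p = 0.097) for TCALIF_10390 and 1.96 (SE 0.64, adjusted p = 0.128) for TCALIF_01077. These 2 had an unadjusted p under 0.05 with limma, as had 28.4% of all genes. The likelihood ratio test called TCALIF_10390 and TCALIF_06804 in that test, for the latter of which limma gave −0.89 (SE 0.51, adjusted p = 0.298), and DESeq2 called TCALIF_10390, while 11% and 5.07% of all genes were called by these tools and limma and the quasi-likelihood test called 0. Limma called 0.00626% of all genes in BR-S minus SC-N and 0% in the other 2 tests of this contrast.

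The 4 genes did not vary as 1 group. After centring log2(cpm + 1) within population and suffix, over the 32 libraries, Pearson's r was 0.85 between TCALIF_00286 and TCALIF_10390, the 2 genes annotated as cuticle protein 7. It was 0.77 between TCALIF_10390 and TCALIF_06804 and 0.67 between TCALIF_00286 and TCALIF_06804, but 0.47, 0.39 and 0.19 between TCALIF_01077 and TCALIF_06804, TCALIF_00286 and TCALIF_10390. Between TCALIF_10390 and TCALIF_01077 it was −0.22 in the 8 libraries of SC-N and 0.69 in those of BR-S. Centred within population alone, the same values were 0.27 and 0.63, so the sign in SC-N depends on the centring. The points share libraries, lanes and cultures, and those of SD-S include the ones that chose the genes, so these values are descriptions.

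By the same measure, the genes most like a given one among 11072 candidates with a mean level of at least 10 cpm were partly the same for both cuticle protein 7 genes. TCALIF_03706, endocuticle structural glycoprotein bd-8-like, had r = 0.92 with TCALIF_00286 and 0.88 with TCALIF_10390, and TCALIF_06172, a hypothetical protein, 0.91 and 0.90. The third was TCALIF_03908 for TCALIF_00286 (r = 0.91), annotated as an spt transcription factor family member, and comp47640_c0_seq1_35533 for TCALIF_10390 (r = 0.86), which has no annotation. For TCALIF_01077 they were TCALIF_12524 (0.92), also annotated as an spt transcription factor family member, TCALIF_12219, cuticle protein (0.92), and TCALIF_12217, cuticle protein 7 (0.90). For TCALIF_06804 they were comp42152_c0_seq1_27311, bcs-1 protein (0.86), comp55889_c0_seq1_44681, an uncharacterized protein (0.82), and comp63947_c0_seq1_44811, peritrophin type-a domain protein 3 (0.81). These names depend on the centring. Centred within population alone, 2 of the 3 genes stayed for TCALIF_00286, TCALIF_10390 and TCALIF_01077. For TCALIF_06804 only 1 stayed, comp42152_c0_seq1_27311, and TCALIF_03706 was no longer among the 3 of TCALIF_00286. Over 44 other cuticle genes held in all tables the median r was 0.53 with TCALIF_01077, 0.34 with TCALIF_06804, 0.24 with TCALIF_10390 and 0.17 with TCALIF_00286. Centred within population alone, the same medians were 0.62, 0.52, 0.47 and 0.38. Over all candidates the median r lay between −0.02 and 0.01 when centred within population and suffix. It lay between −0.03 and −0.01 when centred within population alone.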

How the data were processed

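RNA-seq libraries (100-bp single-end, unstranded TruSeq) of pooled whole copepods were sequenced on Illumina HiSeq instruments. Per the paper's methods, the authors trimmed the reads, mapped them in CLC Genomics Workbench to a population's genomic transcripts, mapped what was left to transcripts assembled de novo, counted uniquely placed reads, removed genes under a low cpm limit, and scaled the counts with TMM in edgeR. The 12 tables deposited by the authors, 1 for each population and comparison, hold the signal of each library, a count divided by the TMM-scaled library size. They also hold the authors' fold changes, p-values and FDR, which were not used, and 4 further value columns that repeat libraries were not used. The ending of a column name separates the libraries of a group into suffix a and suffix b. The suffix was used as a block in place of the lane. It follows the paper's replicates by depth only, as the column names give no replicate numbers. Per the paper, the replicates of SD-S and SC-N ran on different HiSeq models, those of BR-S and BB-N on the same model. In SD-S and SC-N the second replicate also had the larger share of mapped reads in each treatment. There, lane, instrument and mapping cannot be told apart in the suffix.

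Reads were recovered from the steps of the deposited values: 100% of the entries were whole within 0.01 reads (largest deviation 5.95e-05). The 16 libraries that recur in several tables gave the same reads in each. Members and lists were chosen with earlier results of these data known. Fits used limma 3.58.1 in R 4.3.3, with a variance trend, on log2(value + 1) across all genes of a table, with Benjamini-Hochberg adjustment over all of them and two-sided p-values. 28V vs 28ST, the contrast of regime and temperature and differences between populations in it used recovered reads as cpm after TMM. Joint and leave-one-out fits used the libraries of the whole population. Fold changes of low genes are understated by the pseudocount of 1. Alternatives used edgeR 4.0.16, DESeq2 1.42.0, other pseudocounts, a filter, no TMM and no block. Limma with and without the block, both edgeR tests and DESeq2 were tried on simulated reads, for 28V vs 28ST of SC-N only. The simulated spread between libraries was narrower than that of the 4 genes. Named genes are the 4 members, the 3 genes most correlated with each, and up to 2 rising and 2 falling listed cuticle genes among those called in a comparison. None of the 21556 identifiers matched the reference gene table used here, so no coordinates or sequences are given. P-values rest on the spread between dishes from a population's laboratory cultures, and limma draws this spread toward a trend over all genes. The prior degrees of freedom, the weight of that trend, were infinite in 28V vs 20V of SC-N and 20V vs 20NV of SD-S. They were 24.6 in 28V vs 28ST of SC-N and at most 9.59 elsewhere. Large values leave little of a gene's own spread in its SE and p-value, and infinite ones leave nothing of it.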

Additional observations from a re-analysis of the deposited data

How the results depend on the processing

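Each comparison was refitted under every alternative, and the number of the 4 genes called was compared with limma's. For the likelihood ratio test and DESeq2 the shares over all genes stand with these comparisons above. With edgeR and DESeq2 only numbers that differ from limma's are listed. With edgeR's likelihood ratio test it was 4 in 20V vs 20NV of SC-N; 3 in 28V vs 20V for SC-N minus BB-N; 2 in 28V vs 20V and 28ST vs 20NV of BB-N, in 20V vs 20NV for SC-N minus BB-N and in 28V vs 20V for BR-S minus SC-N; and 1 in 28V vs 20V of BR-S, 20V vs 20NV of BB-N, 28V vs 28ST of SD-S and BB-N, regime by temperature in BB-N, and 28V vs 28ST for BR-S minus SC-N, SC-N minus BB-N, SD-S minus BR-S and SD-S minus BB-N. With DESeq2 it was 3 in 28V vs 20V for SC-N minus BB-N; 2 in 20V vs 20NV of SC-N, 28V vs 20V of BB-N and 28V vs 20V for BR-S minus SC-N; and 1 in 28V vs 20V of SC-N, 28ST vs 20NV of BB-N, 28V vs 28ST of SD-S and BB-N, regime by temperature in BB-N, 20V vs 20NV for SC-N minus BB-N, and 28V vs 28ST for BR-S minus SC-N, SC-N minus BB-N and SD-S minus BR-S. Without TMM limma called 2 in 20V vs 20NV of SC-N and 1 in that of BB-N. It called 1 in 28ST vs 20NV of BB-N with a pseudocount of 4 or with genes of a mean value of at least 10, and with the latter 1 in 28V vs 28ST of BB-N. The cause of these changes was not tested.

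Without the replicate block, and in the joint fit, limma called 0 in 28V vs 20V and 28V vs 28ST of SC-N. The suffixes deviated together, with a correlation above 0.1, in 10 of 16 pairs of treatments (range −0.35 to 0.48), so they pair libraries only in part. A crossed pairing, added after seeing the data, gave 1 call (TCALIF_00286) in 20V vs 20NV of BR-S. By depth it pairs libraries of different lanes. It was set with the values known, so nothing is read from that call. Centring within population alone moved the median correlation with other cuticle genes by over 1.5 times for TCALIF_00286, TCALIF_10390 and TCALIF_06804. With that centring only 1 of the 3 genes most like TCALIF_06804 stayed, and r between TCALIF_10390 and TCALIF_01077 in SC-N became positive.

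Leaving out 1 library at a time, the number called ranged from 0 to 0 in 28V vs 20V and 28V vs 28ST of SC-N and from 0 to 1 in 28V vs 20V of BB-N and in 28V vs 28ST for SC-N minus BB-N. The log2 fold change then changed sign, over the range given, for TCALIF_00286 in 20V vs 20NV (−2.35 to 0.15) and 28ST vs 20NV (−1.31 to 2.95) of SC-N, in regime by temperature of SC-N (−0.96 to 3.30) and BB-N (−0.032 to 1.35) and in 28V vs 28ST for BR-S minus SC-N (−2.79 to 1.44). It did so for TCALIF_10390 in 20V vs 20NV (−0.87 to 2.10), 28V vs 20V (−2.04 to 0.020) and regime by temperature (−2.43 to 0.55) of BR-S and in 20V vs 20NV for BR-S minus BB-N (−0.59 to 2.41). For TCALIF_01077 it did so in 28ST vs 20NV (−0.9998 to 0.19) and 28V vs 28ST (−0.32 to 1.13) of SD-S and in 20V vs 20NV of BR-S (−2.36 to 0.53). For TCALIF_06804 it did so in 28ST vs 20NV of BR-S (−1.67 to 0.19), in 20V vs 20NV for BR-S minus BB-N (−1.70 to 0.20) and SC-N minus BB-N (−1.93 to 0.044) and in 28V vs 28ST for SC-N minus BB-N (−0.11 to 1.51). Of 40 tested values under 0.6 on the log2 scale, 37 changed sign under some setting. Read numbers limit TCALIF_06804 most, with 8 and 19 reads in 20V of SD-S.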
